A study of Homo sapiens with 8 samples.

Results

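The miR-181 family was followed by small RNA sequencing of HCT116, an established line of human colorectal carcinoma cells, sorted for the surface marker CD44v6. Its members were the mature arms of miR-181a, miR-181b, miR-181c and miR-181d picked by row name, 7 of the 2026 rows of the count table: 4 guide (5p) arms and 3 passenger (3p) arms. A further 3 rows carry the name miR-181 and are given beside them. Spheroids of HCT116 cells, grown in serum-free medium with growth factors in low-attachment flasks, were stained for CD44v6. This variant of CD44, the receptor for hyaluronan, carries a variable exon and serves as a marker of stem-like colorectal cancer cells. Live cells were then sorted into a CD44v6-positive and a CD44v6-negative group, which share the cell line and the culture. The 8 sequencing entries of the labels carry 4 combined identities, and each column of the count table holds 1 identity, so there were 2 samples per group. Nothing in the labels ties the samples of a group to separate cultures. The p-values therefore speak only of the spread between these samples, and that spread may be technical. A single cell line was measured.

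MicroRNAs are cut from hairpin precursors by DROSHA and DICER1, and 1 of the arms, the guide, is loaded preferentially into an Argonaute protein, where bases 2 to 8, the seed, pair with target messenger RNAs. The other arm, the passenger, is mostly degraded. The miR-181 family is known for tuning T cell receptor signalling in thymocytes and has been studied in stem-like cells of liver and breast tumours. In humans it comes from 3 clusters that each hold 2 hairpins, so the same guide can arise at different loci while the passengers differ in sequence.

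The guides that carry the comparison are shown 5′ to 3′ with the seed in capitals, as RefSeq gives them on GRCh38.p14.
hsa-miR-181a-5p: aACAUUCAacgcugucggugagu
hsa-miR-181b-5p: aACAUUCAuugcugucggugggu
hsa-miR-181c-5p: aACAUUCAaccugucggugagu
hsa-miR-181d-5p: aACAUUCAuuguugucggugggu
All 4 guides share the seed, and among the table's rows with a RefSeq sequence these 4 were the only ones that hold it. Counting from 1 at the 5′ end of the first-named guide, miR-181a-5p and miR-181b-5p differ by A9U, C10U and A21G, and miR-181b-5p and miR-181d-5p by C12U alone. miR-181c-5p equals miR-181a-5p without the base at position 11. How the authors treated mismatches and reads with several matches is not given in the sources used here, so some reads of miR-181d-5p could belong to miR-181b-5p, and some of miR-181c-5p to miR-181a-5p, or the reverse.

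The passengers tell the loci apart and do not share 1 seed.
hsa-miR-181a-3p: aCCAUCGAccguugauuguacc
hsa-miR-181a-2-3p: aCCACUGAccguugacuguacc
hsa-miR-181c-3p: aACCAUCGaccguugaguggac
miR-181a-3p and miR-181a-2-3p differ by U5C, C6U and U16C. miR-181c-3p starts 1 base earlier than miR-181a-3p, and with that offset the pair differ by U16G and U19G, counted on miR-181a-3p.

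Hairpins of miR-181a from both loci show how an identical guide is paired with a different passenger, and that of miR-181c is given beside them. Capitals mark the mature arms.
MIR181A1: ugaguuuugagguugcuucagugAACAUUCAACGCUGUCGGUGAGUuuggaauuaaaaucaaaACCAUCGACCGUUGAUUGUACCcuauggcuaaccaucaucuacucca
MIR181A2: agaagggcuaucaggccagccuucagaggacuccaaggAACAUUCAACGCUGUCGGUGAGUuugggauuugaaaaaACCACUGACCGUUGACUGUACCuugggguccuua
MIR181C: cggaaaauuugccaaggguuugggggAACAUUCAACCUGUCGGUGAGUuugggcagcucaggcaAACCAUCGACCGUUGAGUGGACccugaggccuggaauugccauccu
On GRCh38, MIR181A1 (chr1:198859044-198859153, minus strand) and MIR181B1 (chr1:198858873-198858982, minus strand) lie 61 bases apart in an intron of the long noncoding RNA gene MIR181A1HG. MIR181A2 (chr9:124692442-124692551, plus strand) and MIR181B2 (chr9:124693710-124693798, plus strand) lie 1158 bases apart in an intron of MIR181A2HG, opposite an intron of NR6A1. MIR181C (chr19:13874699-13874808, plus strand) and MIR181D (chr19:13874875-13875011, plus strand) lie 66 bases apart in an intron of NANOS3 on the same strand, in GENCODE release 29.

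The libraries differed in depth, with totals of 919802 and 154481 for CD44v6-positive samples 1 and 2, against 7880631 and 4592278 for CD44v6-negative samples 1 and 2. Levels are given as CPM, reads per 1000000 reads of the library, scaled by TMM, a trimmed mean that makes libraries comparable. A CPM value of 1 read was 1.08 and 5.21 in the CD44v6-positive samples and 0.191 and 0.181 in the CD44v6-negative samples. CD44v6-positive sample 2 stood apart in some markers of other cell types and in some of colon epithelium. The colon marker miR-192-5p was at 1031 and 4555 CPM in CD44v6-positive samples 1 and 2, against 1887 and 1320 CPM in CD44v6-negative samples 1 and 2. Of the same colon list, miR-200c-3p went the other way at 7126 and 2202 CPM, against 9855 and 4425 CPM. In the list of stroma and muscle, miR-143-3p, abundant in smooth muscle, was at 745 and 4966 CPM in CD44v6-positive samples 1 and 2, against 1084 and 664 CPM in CD44v6-negative samples 1 and 2. From the same list, miR-145-5p went the other way at 100.3 and 57.3 CPM, against 179 and 197 CPM. miR-199a-3p, counted in a row joined with miR-199b-3p, was at 67.9 and 135 CPM, against 66.6 and 51.1 CPM. miR-1-3p had 1 and 0 reads, against 4 and 0, and miR-133a-3p had 5 and 0 reads, against 7 and 0. miR-214-3p had 1 and 1 reads, against 7 and 5. Such low counts cannot set CD44v6-positive sample 2 apart. The red cell miRNA miR-451a was at 15.1 and 281 CPM, against 24.9 and 7.61 CPM. Of the 7 blood markers all had reads, and their summed level was 3782 and 3732 CPM in CD44v6-positive cells, against 3137 and 1411 CPM in CD44v6-negative cells, most of it from miR-486-5p. Their part in the values below was not tested.

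The arms differed in direction. In CD44v6-positive cells the guide miR-181c-5p and its passenger miR-181c-3p, from chromosome 19, stood lower, at 0.241 and 0.316 times the mean CPM of CD44v6-negative cells. miR-181b-5p stood higher, at 1.94 times, and miR-181a-5p, the main guide, was at 1.37 times with overlapping groups. The passengers of miR-181a also went both ways, with miR-181a-3p at 0.598 times and miR-181a-2-3p at 1.72 times. None of the 7 members passed edgeR's quasi-likelihood test at an adjusted p under 0.05, and neither did any of the 570 tested miRNAs (0% called), so these are differences in level that did not pass. With edgeR at an unadjusted p under 0.05 there was 1 member, miR-181c-5p, against 30.5% of all tested miRNAs. DESeq2 called 0 of the 7 members, against 14.3% of the 525 miRNAs it adjusted, and limma-voom called 0 of the 7, against 0.702%.

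**Figure D1:**
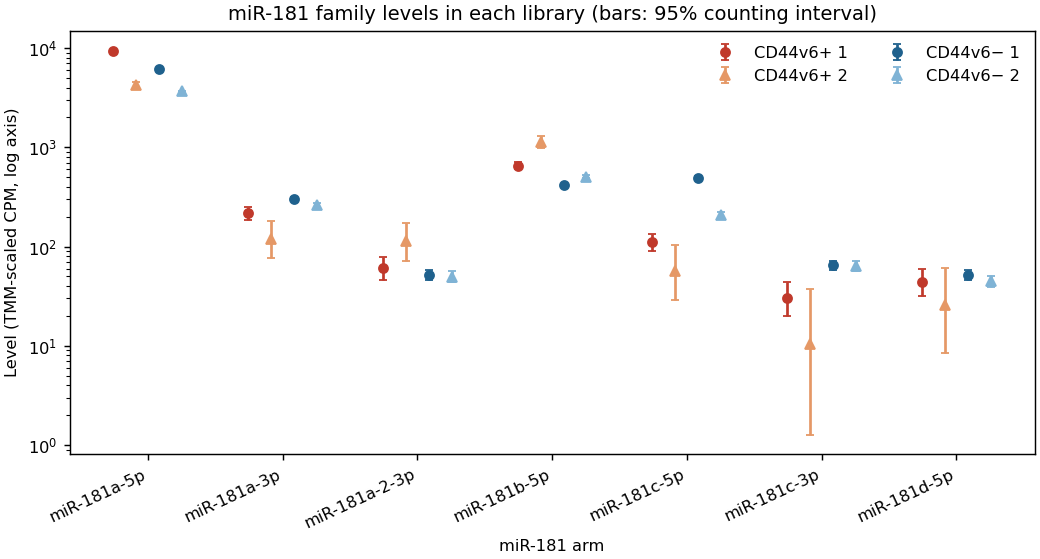
Level of each miR-181 arm in the 4 libraries, as TMM-scaled CPM on a log axis, with bars for the 95% Poisson counting interval, CD44v6-positive samples in red shades and CD44v6-negative samples in blue shades. miR-181a-5p lies between 3669 and 9268 CPM in all 4 libraries, and miR-181c-5p is lower in both CD44v6-positive samples, at 111 and 57.3 CPM.

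hsa-miR-181a-5p, the guide made from both MIR181A1 and MIR181A2, was the most abundant member. It was read at 9268 and 4284 CPM in CD44v6-positive samples 1 and 2, against 6214 and 3669 CPM in CD44v6-negative samples 1 and 2. CD44v6-positive sample 1 was the highest and the groups overlapped. The log2 fold change was 0.46 ± 0.55 (SE; 95% interval -0.88 to 1.79; edgeR adjusted p = 0.608). It was -0.21 without CD44v6-positive sample 1 and 1.03 without CD44v6-positive sample 2. Per total reads, with no TMM scaling, the guide was at 9343 and 5328 CPM in CD44v6-positive samples, against 4123 and 4410 CPM in CD44v6-negative samples, and the groups did not overlap. By number of reads it ranked 22 and 38 among the miRNAs of the CD44v6-positive libraries, and 44 and 43 among those of the CD44v6-negative libraries.

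hsa-miR-181b-5p, the second guide of the chromosome 1 and chromosome 9 clusters, had 607 and 217 reads in CD44v6-positive samples 1 and 2, against 2160 and 2799 reads in CD44v6-negative samples 1 and 2. At their unequal depths these were 655 and 1129.6 CPM, against 413 and 507 CPM. Both CD44v6-positive samples lay above both CD44v6-negative samples, and CD44v6-positive sample 2 was the highest. That sample stood apart in some cell type markers and not in others, and a link was not tested. The log2 fold change was 0.95 ± 0.51 (95% interval -0.29 to 2.20; edgeR adjusted p = 0.254), and 0.66 without CD44v6-positive sample 2. The interval includes 0.

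The chromosome 19 guide hsa-miR-181c-5p had 103 and 11 reads in CD44v6-positive samples 1 and 2, against 2560 and 1154 reads in CD44v6-negative samples 1 and 2. These counts were 111 and 57.3 CPM, against 489.6 and 209 CPM. Both CD44v6-positive samples lay below both CD44v6-negative samples, which themselves differed widely. At the shares of total reads seen in the CD44v6-negative libraries, 231 to 299 reads would stand in CD44v6-positive sample 1 and 38.8 to 50.2 in sample 2. The log2 fold change was -2.02 ± 0.68 (95% interval -3.66 to -0.37; edgeR adjusted p = 0.128), and it ran from -2.61 to -1.28 with 1 sample left out. DESeq2 gave -1.96 ± 0.75 with an adjusted p of 0.0592. By reads it ranked 174 and 213 in the CD44v6-positive libraries, against 110 and 145 in the CD44v6-negative libraries.

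hsa-miR-181d-5p, made from the neighbouring hairpin MIR181D, was scarce, with 41 and 5 reads in CD44v6-positive samples 1 and 2, against 269 and 247 reads in CD44v6-negative samples 1 and 2. It stood at 44.2 and 26.0 CPM, against 51.4 and 44.7 CPM. The groups lay apart by a narrow margin, and per total reads they overlapped, at 44.6 and 32.4 CPM against 34.1 and 53.8 CPM. The log2 fold change was -0.40 ± 0.60 (95% interval -1.85 to 1.06; edgeR adjusted p = 0.678), 0.016 without CD44v6-positive sample 2 and 0.25 after an adjustment for GC content. The intervals of both chromosome 19 guides overlap, and the difference between their fold changes was not tested.

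**Figure D2:**
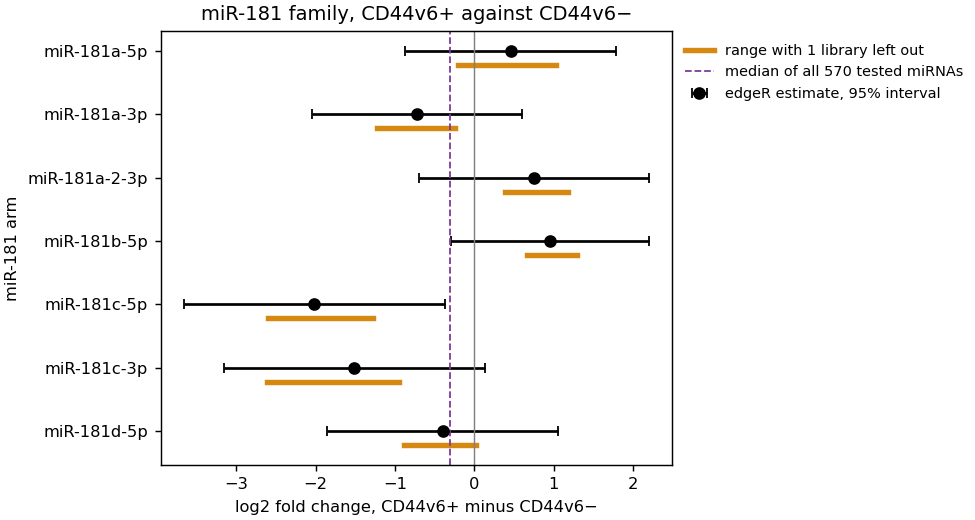
Log2 fold change of each arm, CD44v6-positive minus CD44v6-negative, with its 95% interval from edgeR (black), the range with 1 library left out (orange) and the median of all tested miRNAs at -0.31 (dashed). The interval of miR-181c-5p, -3.66 to -0.37, does not reach 0, while the others do.

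Passenger arms show the loci that the shared guides hide. hsa-miR-181c-3p, from MIR181C, went with its guide at 30.2 and 10.4 CPM in CD44v6-positive samples 1 and 2, against 64.6 and 63.8 CPM in CD44v6-negative samples 1 and 2. The CD44v6-positive values rest on 28 and 2 reads, against 338 and 352 reads in CD44v6-negative samples. In CD44v6-positive sample 2 the 95% Poisson interval was 1.26 to 37.6 CPM, and 6.63 to 11.8 reads would stand there at the CD44v6-negative shares. The log2 fold change was -1.51 ± 0.68 (95% interval -3.16 to 0.13; edgeR adjusted p = 0.189), and -2.62 to -0.95 with 1 sample left out.

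hsa-miR-181a-3p, the passenger of MIR181A1 on chromosome 1, was at 216 and 119.7 CPM in CD44v6-positive samples 1 and 2, against 300.3 and 261 CPM in CD44v6-negative samples 1 and 2. Both CD44v6-positive samples lay below, but per total reads the groups overlapped, at 217 and 149 CPM against 199 and 314 CPM. Its log2 fold change was -0.73 ± 0.55 (95% interval -2.05 to 0.60; edgeR adjusted p = 0.419), -0.24 without CD44v6-positive sample 2 and -1.23 without CD44v6-positive sample 1.

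hsa-miR-181a-2-3p, the passenger of MIR181A2 on chromosome 9, was at 60.4 and 114.5 CPM in CD44v6-positive samples 1 and 2, against 51.6 and 49.8 CPM in CD44v6-negative samples 1 and 2. CD44v6-positive sample 2 was the highest, from 22 reads where 5.29 to 9.25 would stand at the CD44v6-negative shares. It stood apart in some cell type markers and not in others, and a link was not tested. CD44v6-positive sample 1 exceeded the CD44v6-negative samples only within its counting interval of 45.6 to 78.4 CPM. The log2 fold change was 0.75 ± 0.60 (95% interval -0.70 to 2.20; edgeR adjusted p = 0.445), and 0.39 without CD44v6-positive sample 2.

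Outside the 7 members, miR-181b-3p had 0 and 1 read in CD44v6-positive samples 1 and 2, against 20 and 40 reads in CD44v6-negative samples 1 and 2. miR-181b-2-3p had 0 and 0 reads, against 0 and 6. miR-181d-3p had 2 and 1 reads, against 1 and 4. A count of 0 allows up to 3 reads, or 3.26 CPM in CD44v6-positive sample 1 and 19.4 CPM in sample 2 before TMM scaling. At the CD44v6-negative shares, 2.33 to 8.01 reads of miR-181b-3p would stand in CD44v6-positive sample 1. Of these 3 rows it alone was tested, with a log2 fold change of -2.32 ± 1.60 (95% interval -6.20 to 1.55; edgeR adjusted p = 0.373) that rests on 1 read in CD44v6-positive cells and depends on the prior count.

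Ratios within a library do not depend on scaling between libraries. miR-181c-5p made up 1.10% (95% Wilson interval 0.910% to 1.33%) and 1.04% (0.583% to 1.86%) of the reads of the 4 guides in CD44v6-positive samples 1 and 2, against 6.83% (6.58% to 7.09%) and 4.72% (4.46% to 4.99%) in CD44v6-negative samples 1 and 2. The CD44v6-positive shares were alike, and both lay below the CD44v6-negative shares beyond the counting intervals, which cover counting error only (PCR copies of a molecule are counted apart). miR-181d-5p made up 0.439% (0.324% to 0.595%) and 0.473% (0.202% to 1.10%), against 0.718% (0.637% to 0.808%) and 1.01% (0.892% to 1.14%). The interval of CD44v6-positive sample 2, from 5 reads, covers both CD44v6-negative shares. The share of miR-181a-5p was 92.0% and 77.9%, against 86.7% and 82.8%, so it did not separate the groups. miR-181b-5p made up 6.50% and 20.5%, against 5.76% and 11.4%, and its share differed more between the samples of a group than between the groups.

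**Figure D3:**
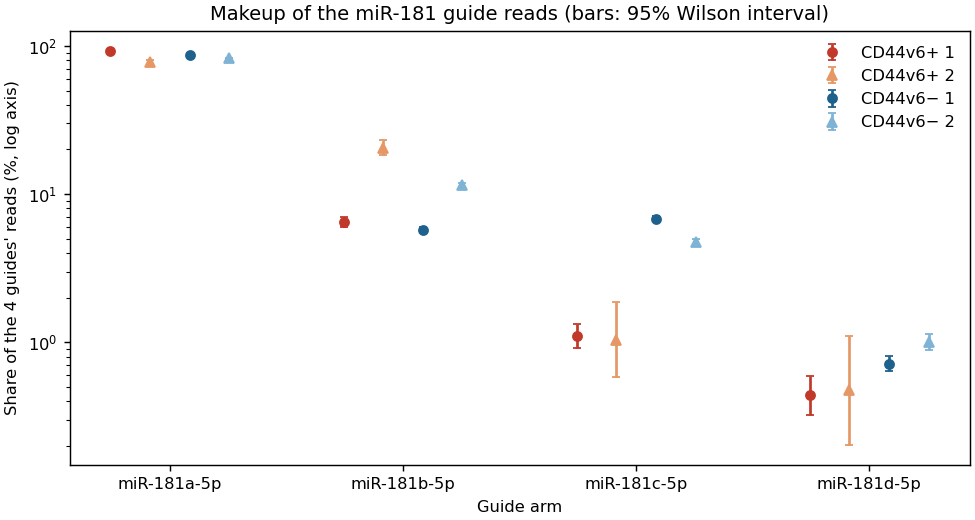
Share of each guide among the reads of all 4 miR-181 guides, in percent on a log axis, with 95% Wilson intervals, for the 4 libraries. miR-181c-5p lies at 1.10% and 1.04% in CD44v6-positive samples and at 6.83% and 4.72% in CD44v6-negative samples.

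By cluster, the reads of the chromosome 19 guides (c and d) over those of the a and b guides had a log2 ratio of -5.99 and -5.98 in CD44v6-positive samples 1 and 2, against -3.61 and -4.04 in CD44v6-negative samples 1 and 2. The difference of the group means was -2.16, and it ran from -2.37 to -1.95 with 1 sample left out. Set singly, miR-181c-5p over miR-181a-5p gave a difference of -2.37 and miR-181d-5p over miR-181b-5p of -1.34. miR-181d-5p over miR-181b-5p had log2 ratios of -3.87 and -5.31 in CD44v6-positive samples, against -3.003 and -3.50 in CD44v6-negative samples, with the lowest ratio from 5 reads of miR-181d-5p. None of these differences was tested: the members were chosen with results known, and an exact two-sided permutation test of 2 samples against 2 cannot go below p = 0.333.

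Arm use of miR-181a was close to complete for the guide. The 5p arm took 97.1% (96.7% to 97.4%) and 94.8% (93.1% to 96.1%) of all miR-181a reads in CD44v6-positive samples 1 and 2, against 94.6% (94.4% to 94.9%) and 92.2% (91.8% to 92.5%) in CD44v6-negative samples 1 and 2. CD44v6-positive sample 2 and CD44v6-negative sample 1 overlapped in their intervals. For miR-181c the guide took less, at 78.6% and 84.6% in CD44v6-positive samples, against 88.3% and 76.6% in CD44v6-negative samples, and the groups overlapped.

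Between the miR-181a loci, the chromosome 9 passenger made up 21.9% (17.2% to 27.3%) and 48.9% (35.0% to 63.0%) of the passenger reads in CD44v6-positive samples 1 and 2, against 14.7% (13.1% to 16.4%) and 16.0% (14.4% to 17.8%) in CD44v6-negative samples 1 and 2. Both CD44v6-positive samples lay higher, but they differed widely from each other. The log2 ratio of miR-181a-2-3p to miR-181a-3p differed by 1.52 between the group means, by 0.64 without CD44v6-positive sample 2 and by 2.40 without CD44v6-positive sample 1. The share reflects both loci only as far as their passengers are equally stable, which was not measured.

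**Figure D4:**
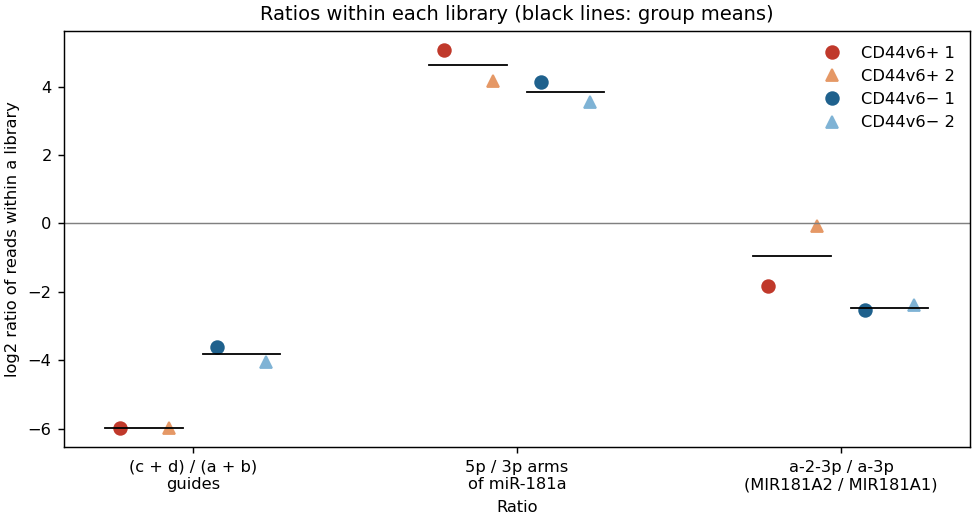
Log2 ratios of reads within each library for the c and d guides over the a and b guides, the 5p over the 3p arms of miR-181a, and miR-181a-2-3p over miR-181a-3p, with group means as black lines. The first ratio is at -5.99 and -5.98 in CD44v6-positive samples and at -3.61 and -4.04 in CD44v6-negative samples.

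The guides summed to 10078 and 5497 CPM in CD44v6-positive samples 1 and 2, against 7169 and 4429 CPM in CD44v6-negative samples 1 and 2, and the groups overlapped. The means were 7787 ± 3239 CPM in CD44v6-positive cells and 5799 ± 1937 CPM in CD44v6-negative cells (SD, n = 2 each), a log2 ratio of 0.43. It was -0.077 without CD44v6-positive sample 1, 0.12 without CD44v6-negative sample 2, and 0.77 and 0.75 with upper-quartile and total count scaling. Because all 4 guides share a seed, this sum is the amount of that seed from the family, and it follows miR-181a-5p. All 7 members together took 1.05% and 0.714% of the reads of CD44v6-positive libraries, against 0.503% and 0.578% of those of CD44v6-negative libraries. In sorted bulk cells, a lower number of cells that make a miRNA and less of it per cell cannot be told apart.

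Against the whole table, the median log2 fold change of the 7 members was -0.40, next to -0.31 over the 570 tested miRNAs. Of the members 3 had positive and 4 negative values, and miR-181c-5p stood at percentile 14.0 and miR-181b-5p at percentile 75.4 of all tested miRNAs. The groups did not overlap for 6 of the 7 members, 4 lower and 2 higher in CD44v6-positive cells, against 59.5% of all tested miRNAs, 34.6% lower and 24.9% higher. Scaled by total reads, 3 members were higher, 2 lower and 2 overlapped, where the groups did not overlap for 55.4% of all tested miRNAs. The member furthest from 0 thus lay inside the spread of the whole table.

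**Figure D5:**
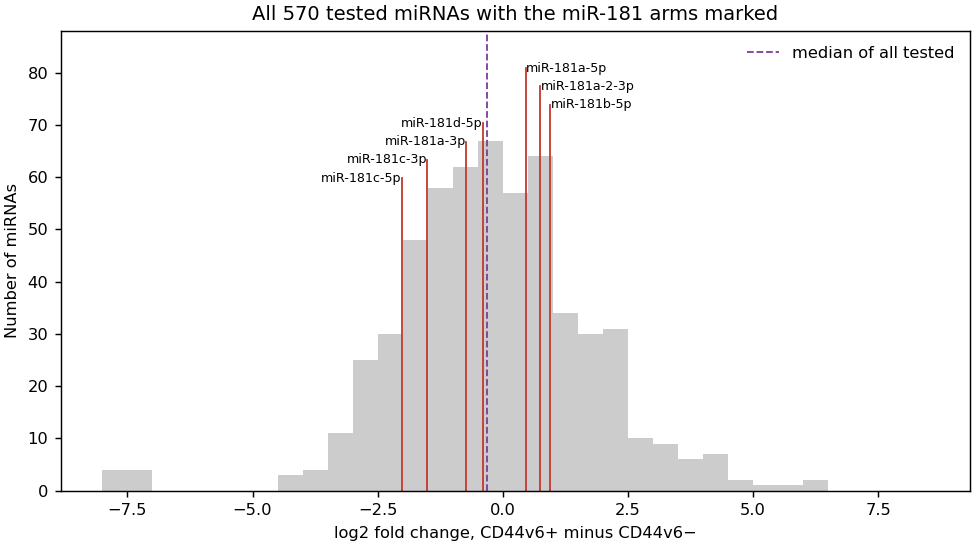
Distribution of log2 fold changes, CD44v6-positive minus CD44v6-negative, over all 570 tested miRNAs (bars count miRNAs in steps of 0.5), with the 7 miR-181 arms as red lines and the median of all at -0.31 dashed. The arms run from -2.02 for miR-181c-5p to 0.95 for miR-181b-5p, within the bulk of the distribution.

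The miRNAs whose pattern over the 4 libraries was most like that of miR-181a-5p were miR-132-3p, miR-125a-5p, miR-584-5p, miR-28-3p and miR-361-3p. They were picked among 185 tested miRNAs with a mean of at least 100 CPM by the Euclidean distance of log2 CPM centred on its own mean. The distances were 0.159 for miR-132-3p, 0.220 for miR-125a-5p, 0.386 for miR-584-5p, 0.425 for miR-28-3p and 0.520 for miR-361-3p, and their log2 fold changes lay between 0.26 and 0.56. miR-132-3p was at 202 and 104 CPM in CD44v6-positive samples 1 and 2, against 143 and 92.2 CPM in CD44v6-negative samples 1 and 2. A likeness over 4 libraries of unequal depth, in which all rows share the scaling, is a description.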

How the data were processed

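The authors deposited whole-number counts of reads for each mature miRNA, and these raw counts were used; their table of normalized values was not. Named without roles in the submitters' processing notes are Bowtie 0.12.9, cutadapt 1.10, CASAVA 1.8.2 and DESeq2, and the build GRCh38. Members, lists and tests were chosen with earlier results of these data known.

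The main test was edgeR 4.0.16 (R 4.3.3; glmQLFit and glmQLFTest) on all rows that passed filterByExpr (minimum count 10, minimum total 15) after TMM scaling, adjusted by Benjamini-Hochberg over the 570 tested miRNAs, two-sided, at 0.05. All 7 members exceeded the filter's 3.63 CPM in every library. Fold changes are CD44v6-positive minus CD44v6-negative, and the SE is the absolute log2 fold change over the square root of F. The test was checked on simulated counts. Ratios within a library had 0.5 read added to each sum. Alternatives were RLE, upper-quartile and total count scaling, no filter, a 10 CPM filter, DESeq2 1.42.0, limma-voom 3.58.1, a GC offset, the replicate number as a block and leaving out each sample. The named miRNAs were the members, rows named miR-181, rows sharing the seed, and the 5 miRNAs nearest in pattern to the most abundant member. Mature sequences matched by name for 1799 of 2026 rows (88.8%).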

Additional observations from a re-analysis of the deposited data

How the results depend on the processing

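The number of miRNAs called by edgeR was 0, and 0 again with RLE or upper-quartile factors and with the 10 CPM filter. It was 48 with total counts only, 77 with no filter, 75 with DESeq2, 4 with limma-voom, 1 with the GC offset (fitted on the 497 tested rows with a sequence) and 0 to 56 with 1 sample left out, 56 of them without CD44v6-positive sample 1 and 4 without CD44v6-positive sample 2; the cause was not tested. The median over all tested miRNAs moved from -0.31 to 0.036 with upper-quartile factors and to 0.0054 with total counts. With no filter, miR-181c-5p passed at -2.41 (edgeR adjusted p = 0.0474), where the median of all miRNAs was -1.55.

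Samples 1 and 2 share only a number. The correlation of the deviations of same-numbered samples over the tested miRNAs was 0.34, and with 2 pairs and no label that ties them this is no pairing. With the replicate block edgeR called 228 of the 570 tested miRNAs, so a call in this fit was common over the whole table. Among them were miR-181b-5p at 0.91 (adjusted p = 0.0356), miR-181c-5p at -2.02 (adjusted p = 0.000196) and miR-181c-3p at -1.59 (adjusted p = 0.0442). miR-181a-5p, miR-181a-3p, miR-181a-2-3p and miR-181d-5p were not called.

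With 1 sample left out, miR-181a-5p ran from -0.21 to 1.03 and miR-181d-5p from -0.88 to 0.016, and with the GC offset miR-181d-5p was 0.25. miR-181a-3p, miR-181a-2-3p, miR-181b-5p, miR-181c-5p and miR-181c-3p kept their direction against 0 in all 13 alternatives. Taken minus the median of all tested miRNAs, miR-181a-3p did not, and ran from -0.88 to 0.46. With no filter it was -1.09, where that median was -1.55. The direction of the 3 ratios within a library held in all 6 of theirs. The summed guides ran from -0.077 to 0.81. Leaving out 1 sample leaves a group of 1, assumed to vary like the other. Depth limits miR-181d-5p and miR-181c-3p, with 5 and 2 reads in CD44v6-positive sample 2.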

Other observations

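Of 20 miRNAs from the stem-cell and lymphocyte programmes in which miR-181 is usually studied, 16 were tested and edgeR called 0. Of these 5 had positive and 11 negative log2 fold changes, with a median of -0.58 against -0.31 over all tested miRNAs. At an unadjusted p under 0.05 in edgeR there were 2 higher and 4 lower, where all 570 tested miRNAs gave 74 higher and 100 lower (30.5%). DESeq2 called 1 higher and 4 lower, against 42 higher and 33 lower over the table (14.3%). miR-155-5p, a lymphocyte miRNA, had 4 reads in each of the 4 libraries, which at their unequal depths were 4.31 and 20.8 CPM in CD44v6-positive samples 1 and 2, against 0.765 and 0.725 CPM in CD44v6-negative samples 1 and 2. The stem-cell miRNA miR-302a-3p had 0 and 0 reads, against 1 and 0.

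Markers of endothelium, miR-126-3p and miR-126-5p, summed to 1393 and 1098 CPM in CD44v6-positive samples 1 and 2, against 4177 and 2697 CPM in CD44v6-negative samples 1 and 2. The 5 markers of colon epithelium summed to 10253 and 8412 CPM, against 23125 and 11195 CPM. That sum follows miR-141-3p (log2 fold change -2.41) and miR-200c-3p (-0.61). miR-192-5p (0.80), miR-194-5p (0.74) and miR-215-5p (1.73) had positive values, so 3 of the 5 were positive, and none passed edgeR's test. These 3 were highest in CD44v6-positive sample 2, and their groups overlapped. miR-192-5p was at 1031 and 4555 CPM, against 1887 and 1320 CPM. miR-194-5p was at 97.1 and 234 CPM, against 116 and 78.4 CPM, and miR-215-5p at 59.3 and 250 CPM, against 60.8 and 29.5 CPM. Of the 6 markers of stroma and muscle 5 had a row of their own, summing to 853 and 5028 CPM against 1266.5 and 862 CPM. miR-199a-3p shares a row with miR-199b-3p and is outside these sums, at 67.9 and 135 CPM against 66.6 and 51.1 CPM.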
